A study of Homo sapiens with 6 samples.

Results

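The cytosolic ribosomal protein genes encode the proteins of the 40S and 60S ribosomal subunits, which read messenger RNA and join amino acids in the cytosol. They were chosen by symbol, as protein-coding genes named RPS or RPL with a number, the stalk genes RPLP0 to RPLP2, RPSA and FAU. Of 82 such symbols, 80 had a row among the 17104 genes of the deposited count table, 33 of them for the 40S and 47 for the 60S subunit. RPL3L and RPL10L had no row and were not analysed here. The choice used no measured value.

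The counts come from RNA-seq of HBMEC, cultured cells that the labels describe as a brain endothelial cell line. The 3 libraries called CON here were taken from cells in normal culture. The 3 called OGD were taken after OGD/R, a culture model of stroke in which both oxygen and glucose are taken away for a time and then restored. How long either step lasted is not stated in the labels, and neither genotype nor any further agent is named for either group. No label says that libraries of 1 group were grown as separate cultures. The p-values therefore rest on variation among these libraries, and that variation may be technical. Levels are given as TMM-scaled CPM, the counts of a gene relative to all counts of its library, and fold changes as log2 of OGD over CON with the standard error (SE). A gene is said to have risen or fallen at an adjusted p under 0.05 in the quasi-likelihood test of edgeR with Benjamini-Hochberg adjustment over all genes tested.

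Each ribosome carries 1 copy of most of these proteins, so cells make them in matched amounts. Their messengers are among the most abundant in growing cells. Most begin with a cytosine and a run of pyrimidines, the 5′ terminal oligopyrimidine (TOP) tract, through which mTORC1 and the RNA-binding protein LARP1 set how strongly they are translated. Low oxygen and low nutrients are known to reduce mTORC1 signalling and, with it, TOP translation. RNA-seq counts measure the messengers and not their translation.

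The start of the transcript is the feature that the family shares beyond its name, and it is shown for the genes to which the results below return. RefSeq start entries (GRCh38.p14) were matched for 64 of the 80 genes. Those without one included RPL5, RPL23, RPL23A, RPL37, RPL39L, RPS2 and RPS20. A tract, taken as C at the listed start followed by at least 4 further C or T, was present for 47 of these 64 (73.4%). It was present for 1404 of 27305 genes of the same RefSeq table (5.14%). The windows below run from 10 bases before the listed start to 20 bases from it, 5′ to 3′ on the gene's strand, with the tract in capitals.
RPS26, chr12:56041908-56041937, plus strand, no tract: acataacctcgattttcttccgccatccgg
RPS27, chr1:153990752-153990781, plus strand: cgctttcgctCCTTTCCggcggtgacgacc
RPS24, chr10:78033853-78033882, plus strand: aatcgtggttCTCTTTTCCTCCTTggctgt
RPL21, chr13:27251548-27251577, plus strand: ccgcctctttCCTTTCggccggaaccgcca
FAU, chr11:65122115-65122144, minus strand: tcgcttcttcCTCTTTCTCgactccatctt
RPLP1, chr15:69452808-69452837, plus strand: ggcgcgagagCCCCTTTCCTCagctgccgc
RPL3, chr22:39319604-39319633, minus strand, no tract: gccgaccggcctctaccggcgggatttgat
RPS27L, chr15:63157458-63157487, minus strand, no tract: gatgccgagcgcagatcgcttgcagcttgc

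A listed start can lie some bases from the start used in these cells, so a window without a tract says only that these letters do not begin there. In the RPS26 window a pyrimidine run lies a few bases after the listed start, and at the listed start of RPL3 the run is shorter than the rule asks. In the 300 bases around the start, searched on both strands, the letters CCGGAAG of the ETS family motif were found for 35.9% of the 64 genes and for 12.2% of all genes in the table. The letters AAGATGGC of YY1 were found for 10.9% and 3.52%, and TATAAA for 7.81% and 14.0%. No ETS match shared its last letters, AAG, with the first letters of a YY1 match on the same strand, the only overlap looked for. The 47 genes with a tract and the 17 without are given side by side, with 26 and 10 higher after OGD and median log2 fold changes of 0.17 and 0.15. The difference between them was not tested, and 10.2% of all genes tested were higher.

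The libraries held 31048662 to 34484647 counts. Among the 12 endothelial markers checked, CDH5, ESAM and ENG had a row, while PECAM1, VWF, KDR, FLT1, TEK, TIE1, CLDN5, ERG and EMCN had none and were not analysed here. Every row of the table had 10 or more counts in at least 3 libraries. A marker without a row may thus have had few reads, which was not tested. The 3 with a row summed to 222 to 231 CPM in CON and 225 to 235 CPM in OGD. ESAM and ENG carried this sum, while CDH5 rose from 10.3 ± 1.00 to 18.1 ± 3.17 CPM (0.81 ± 0.11, edgeR adjusted p = 2.71e-07) without overlap of the groups. Of 12 epithelial markers 8 had a row, and these summed to 2485 to 2711 CPM in CON and 3048 to 3104 CPM in OGD, led by the keratins KRT8, KRT18 and KRT7. These 3 and ELF3 rose, and the other 4 did not pass, CLDN4 at −0.25 ± 0.10, ESRP1 at −0.18 ± 0.07, CDH1 at −0.28 ± 0.35 and EPCAM at 0.14 ± 0.06. CDH5 and the epithelial sum thus moved with the group, and their part in the results below was not tested. In every library the epithelial sum was above the endothelial sum, although fewer endothelial markers had a row. These markers thus do not bear out the endothelial label, and the identity of the cells was not tested. Pericyte and fibroblast markers (4 of 8 with a row) summed to 21.2 to 23.1 CPM in CON and 17.8 to 24.8 CPM in OGD. Astrocyte and neuron markers (3 of 8) summed to 1.97 to 2.95 and 1.01 to 2.10 CPM, and none of 6 leukocyte markers had a row. In a bulk library, fewer cells of a type and less RNA per cell cannot be told apart.

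After OGD, messengers of ribosomal proteins were modestly more abundant, and none fell. Of the 80 genes 43 were higher and 0 lower, against 10.2% higher and 9.48% lower of all genes tested (19.7% in either direction), and 37 did not pass. Of other protein-coding genes with transcripts of up to 1000 nucleotides, the lengths that hold most of the set, 40% to 45.8% in each length bin were also higher. The median log2 fold change was 0.17, against −0.005 over all genes tested, and 75 of the 80 values were positive. With total-count scaling in place of TMM, 40 were higher and 0 lower. The split over all genes moved from 1749 higher and 1621 lower to 1383 higher (8.09%) and 2098 lower (12.3%). At an unadjusted p under 0.05, 0 of the 80 had a negative fold change, and DESeq2 and limma-voom also called 0 lower. The changes were small: 78 of the 80 log2 fold changes lay within 0.35 of 0, and only that of RPS26 was above 0.5.

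**Figure D1:**
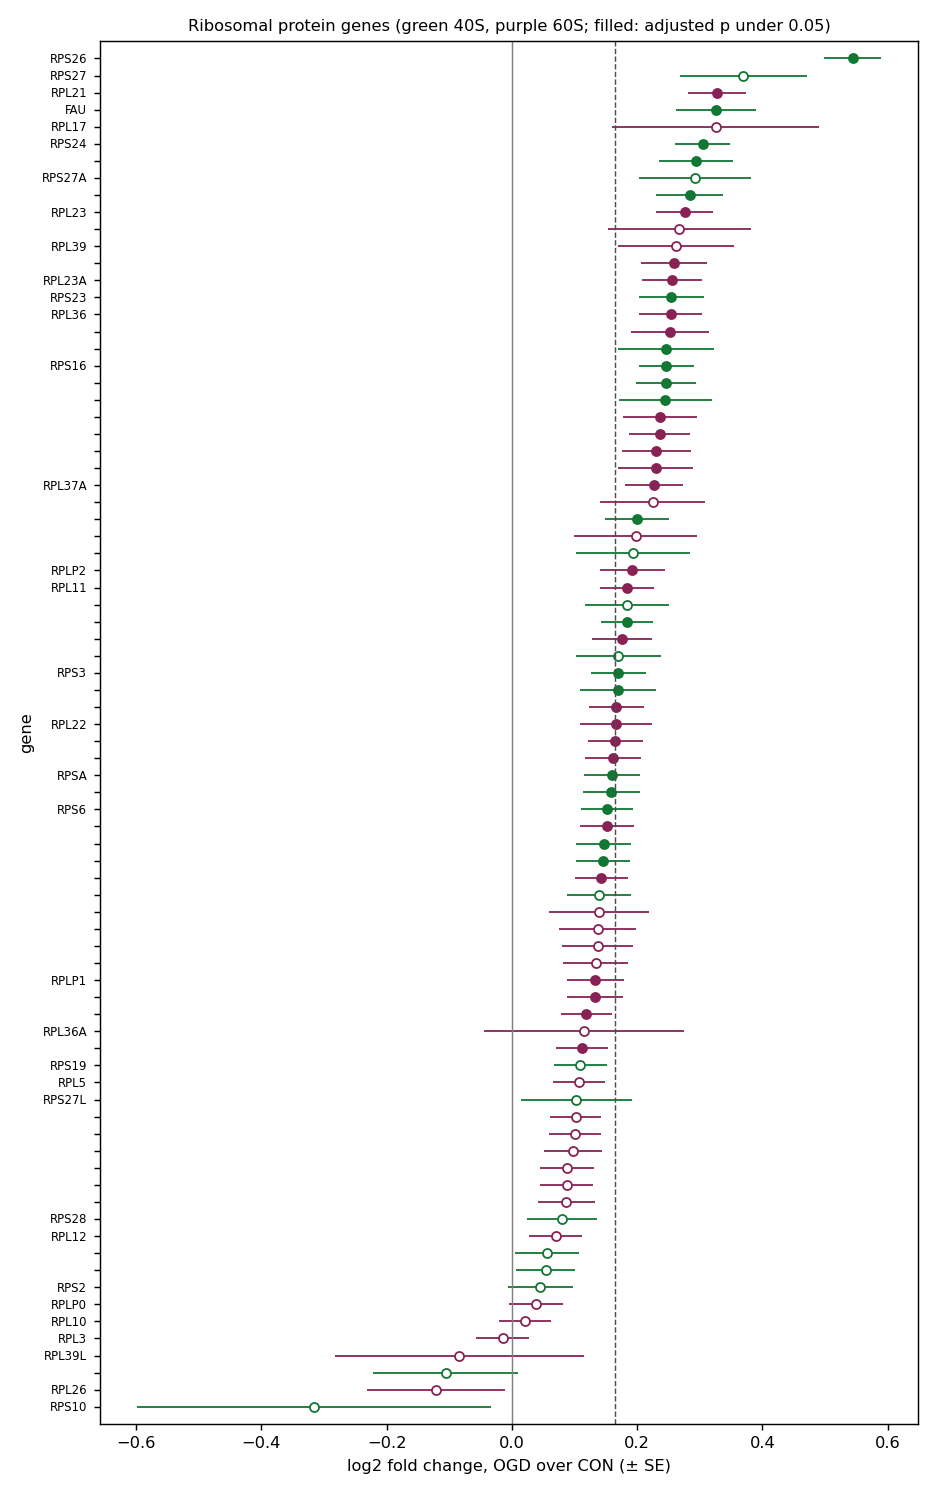
Log2 fold change of OGD over CON (horizontal axis, bars are SE) for each of the 80 ribosomal protein genes (vertical axis, in order of fold change, with some genes labelled), 40S in green and 60S in purple, with filled points for an adjusted p under 0.05 and a dashed line at the median of 0.17. RPS26 lies apart at the top with 0.54, and the lowest values, RPS10 among them, have wide bars.

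The groups overlapped for most of the set. In 22 of the 80 genes all OGD libraries lay above all CON libraries, a pattern found in 16.4% of all genes tested, and in 0 genes they lay below. The control library CON2 was the highest control in 74 genes and OGD1 the lowest OGD library in 68, and CON2 lay above OGD1 in 54. Over all genes tested these patterns were found in 34.1%, 34.1% and 50.3%. Set against CON1 and CON3 alone, a choice made after CON2 was seen to be high, the OGD libraries were all higher in 69 of the 80 genes and in 21.9% of all genes. Summed over the set, the genes took 4.60%, 5.17% and 4.67% of the counts in CON1, CON2 and CON3, and 4.99%, 5.36% and 5.28% in OGD1, OGD2 and OGD3. The mean share was 4.81 ± 0.31% in CON and 5.21 ± 0.19% in OGD (SD, n = 3), with CON2 above OGD1.

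The number of genes called rested on which libraries were compared. It was 20 without CON1, 68 without CON2 and 23 without CON3, where 8.59%, 10.8% and 7.62% of all genes were higher. It was 58 without OGD1, 26 without OGD2 and 28 without OGD3, where 9.03%, 7.56% and 7.96% of all genes were higher. The same libraries differed in how counts changed with transcript length in genes outside the set. Spearman's rho between transcript length and a gene's deviation from its mean over libraries was 0.42, 0.05 and 0.26 in CON1 to CON3. It was −0.26, −0.32 and −0.23 in OGD1 to OGD3. The median log2 deviation of the ribosomal protein genes was −0.15, 0.04 and −0.15 in CON1 to CON3, and 0.0019, 0.13 and 0.12 in OGD1 to OGD3. CON2 thus had both the flattest length trend of the 6 libraries and the highest ribosomal protein level of the controls.

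**Figure D2:**
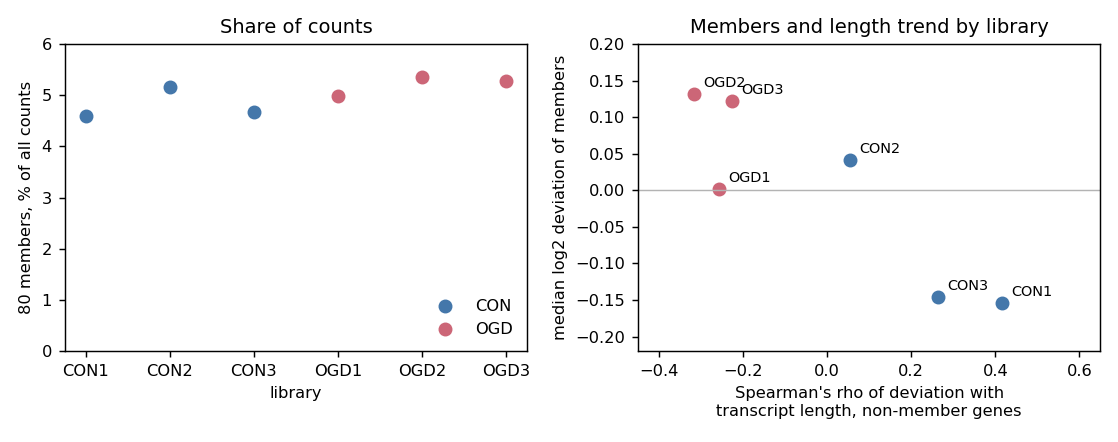
Left, the summed counts of the 80 ribosomal protein genes as a percentage of all counts in each library, 4.60% to 5.17% in CON (blue) and 4.99% to 5.36% in OGD (red). Right, the median log2 deviation of these genes in each library (vertical axis) against the Spearman correlation of other genes' deviations with transcript length (horizontal axis), in which CON1 and CON3 lie at the lower right and the OGD libraries at the left.

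RPS26 (ENSG00000197728) moved furthest. Its protein lies at the exit of the messenger channel of the 40S subunit, where it contacts the bases before the start codon. Expression was 153, 177 and 165 CPM in the CON libraries and 231, 246 and 245 CPM in the OGD libraries. Every OGD library lay above every control, by a wide margin compared with the spread within groups. The mean went from 165 ± 11.7 to 240.5 ± 8.09 CPM (SD, n = 3 each), a log2 fold change of 0.54 ± 0.05 (SE, edgeR adjusted p = 4.23e-13). It was higher in all 21 alternative fits that keep a scaling over all genes, with log2 fold changes of 0.40 to 0.60. Its listed transcript has 1272 nucleotides for a coding length of 345, and which part of it other genes share was not tested. Over the whole of it, 27.3% of 50-base windows also occur in another annotated gene, and 59 RefSeq pseudogenes carry the name of RPS26. The 2 that had a row held 0.495% as many counts as RPS26 itself.

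RPS26 also rose within the set. It took 0.339%, 0.342% and 0.358% of the set's counts in CON1 to CON3, and 0.460%, 0.452% and 0.458% in OGD1 to OGD3. To show changes within the set, the fit was repeated with libraries scaled to the summed counts of the 80 genes, which moves the median of all genes to −0.15. On that scale 2 of the 80 were higher (1.36% of all genes tested) and 0 lower (17.1%): RPS26 at 0.40 ± 0.08 (SE) and RPS27 at 0.22 ± 0.08. Their edgeR adjusted p were 6.17e-05 and 0.033. No other gene of the set was called on that scale.

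**Figure D3:**
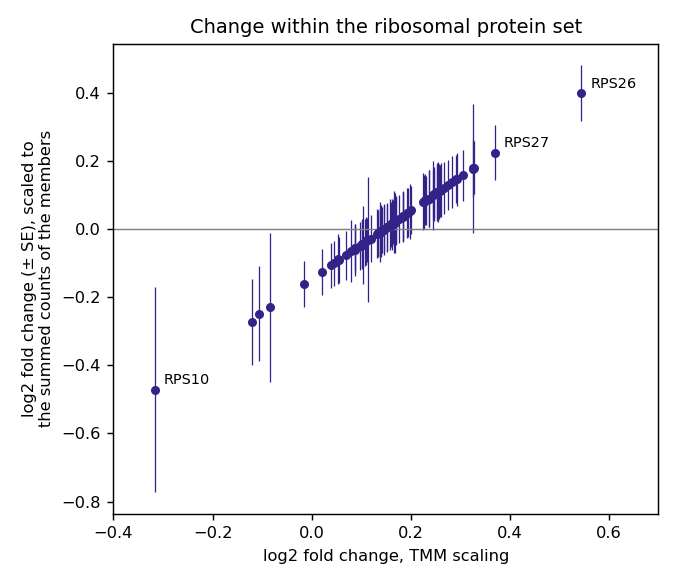
Log2 fold change with libraries scaled to the summed counts of the 80 ribosomal protein genes (vertical axis, bars are SE) against that with TMM scaling (horizontal axis), 1 point a gene. RPS26, at 0.54 with TMM scaling, is at 0.40 within the set, RPS27 is at 0.22, and RPS10 has the lowest value and a wide bar.

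RPS27 (ENSG00000177954) is a zinc-binding protein of the 40S subunit with a close paralog, RPS27L, which is known as a p53 target. RPS27 was at 204, 246 and 206 CPM in the CON libraries and 251, 301 and 296 CPM in the OGD libraries. The groups did not overlap, with OGD1 just above CON2. The log2 fold change was 0.37 ± 0.10 (SE) and missed the threshold in the main test (edgeR adjusted p = 0.0534, and 2.25e-14 to 0.162 over the alternatives with a scaling over all genes). It passed with DESeq2 (0.0141) and limma-voom (1.9e-05), and without CON2, OGD1 or OGD2 in edgeR (4.26e-07 to 0.0233). It is a short messenger of 359 nucleotides, 66.5% of whose 50-base windows occur in another annotated gene. RPS27L, whose listed start has no tract, was at 23.2, 20.5 and 20.03 CPM in the CON libraries and 24.1, 23.97 and 20.5 CPM in the OGD libraries, and the groups overlapped (0.10 ± 0.09, adjusted p = 0.478). RPS27L stood at 11.4%, 8.35% and 9.70% of the RPS27 count in CON1 to CON3 and at 9.57%, 7.96% and 6.92% in OGD1 to OGD3.

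**Figure D4:**
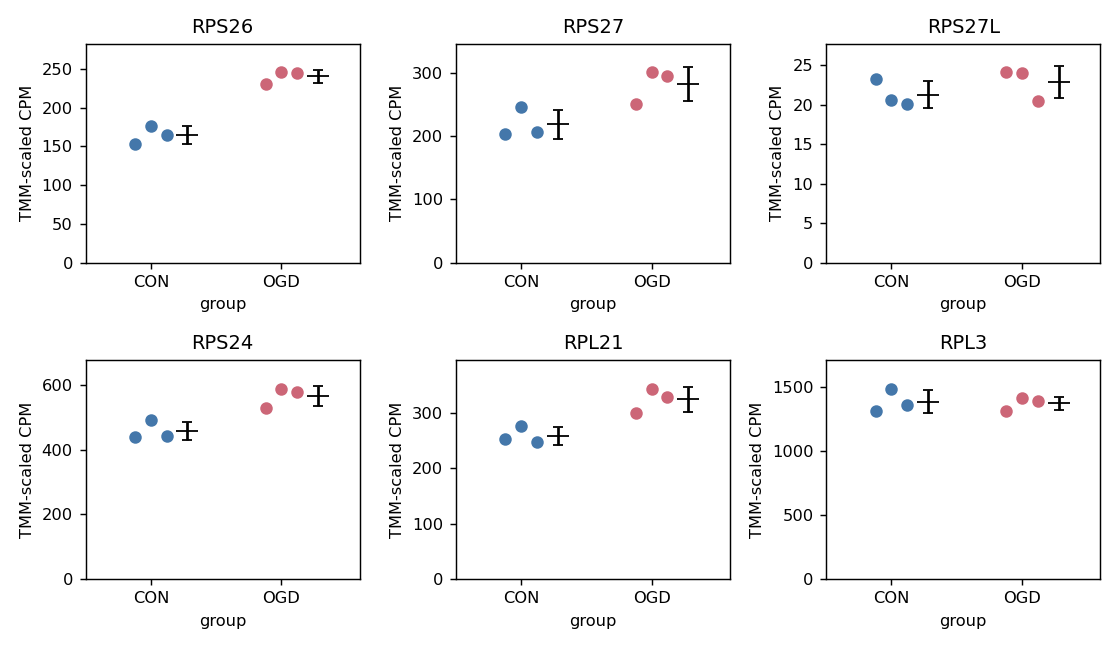
TMM-scaled CPM (vertical axes, each from 0) of 6 ribosomal protein genes in the 3 CON (blue) and 3 OGD (red) libraries, with black bars for mean ± SD. The groups are apart for RPS26, RPS27, RPS24 and RPL21 and overlap for RPS27L and RPL3.

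Across the 40S subunit, 19 of 33 genes were higher and 0 lower, with a median log2 fold change of 0.17. In 13 genes the groups did not overlap. Among all genes tested 10.2% were higher and 9.48% lower, and 16.4% had every OGD library above every control. Besides RPS26, RPS24, RPS16 and RPS23 were among those of smallest p. RPS24 (ENSG00000138326), mutated in some families with Diamond-Blackfan anaemia, was at 439.8, 492 and 443 CPM in the CON libraries and 530.3, 589.6 and 579 CPM in the OGD libraries. All OGD values lay above the controls (0.30 ± 0.04, edgeR adjusted p = 7.04e-07). RPS16, whose tail reaches towards the transfer RNA in the decoding site, was at 688, 802 and 719 CPM in the CON libraries and 864, 896 and 861 CPM in the OGD libraries (0.25 ± 0.04, adjusted p = 2.7e-05). RPS23, a protein of the decoding centre, was at 91.4, 107 and 94.8 CPM in the CON libraries and 112, 118 and 120.4 CPM in the OGD libraries. The log2 fold change was 0.25 ± 0.05 (adjusted p = 0.000224), and the distance between CON2 and OGD1 was small. In all 3 genes CON2 was the highest control, and OGD1 was the lowest OGD library in RPS24 and RPS23.

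Of 3 further 40S genes with known tasks in signalling or disease, 2 were higher, against 10.2% of all genes tested. RPS6, the substrate of S6 kinase, was at 653, 698 and 616 CPM in the CON libraries and 718, 739.6 and 728 CPM in the OGD libraries. The groups did not overlap, and the gene rose (0.15 ± 0.04, edgeR adjusted p = 0.00598). RPSA, also described as a laminin receptor precursor, was at 1558, 1787 and 1563 CPM in the CON libraries and 1734, 1891 and 1856 CPM in the OGD libraries. It rose (0.16 ± 0.04, adjusted p = 0.00844), although CON2 lay above OGD1. RPS19, the gene most often mutated in Diamond-Blackfan anaemia, was at 821, 942 and 863 CPM in the CON libraries and 933, 953 and 947 CPM in the OGD libraries. CON2 lay among the OGD values, and the change did not pass (0.11 ± 0.04, adjusted p = 0.0594). The calls of RPS6 and RPSA rested on single libraries. The edgeR adjusted p of RPS6 was 0.116 without CON3 and 0.0586 without OGD2, and that of RPSA was 0.0512 to 0.104 without CON1, CON3, OGD2 or OGD3. Without CON2 that of RPS19 was 0.000871, and RPS19 also passed with upper-quartile scaling, limma-voom and the length and GC correction.

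Ubiquitin is attached to RPS2, RPS3, RPS10 and RPS20 when ribosomes stall or collide, and 2 of these 4 genes were higher. RPS3, at the messenger entry, was at 958, 1127 and 1003 CPM in the CON libraries and 1143, 1162 and 1169.8 CPM in the OGD libraries. Its groups did not overlap, and it rose (0.17 ± 0.04, edgeR adjusted p = 0.00364). RPS20 rose with a log2 fold change of 0.28 ± 0.05 (adjusted p = 0.000355). RPS2 was at 1539.9, 1851 and 1663 CPM in the CON libraries and 1637, 1800.4 and 1778 CPM in the OGD libraries, with CON2 the highest of all (0.05 ± 0.05, adjusted p = 0.616). RPS10 had the lowest fold change of the set, −0.32 ± 0.28, from 1.78, 1.55 and 2.28 CPM in CON and 1.49, 1.80 and 1.22 CPM in OGD (adjusted p = 0.498), a level taken up again below. Without CON1 the edgeR adjusted p of RPS3 was 0.0592, and without CON2 that of RPS2 was 0.0266.

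Across the 60S subunit, 24 of 47 genes were higher and 0 lower, with a median of 0.15 and 9 genes whose groups did not overlap. Among all genes tested 10.2% were higher and 9.48% lower, and 16.4% had every OGD library above every control. RPL21 (ENSG00000122026) had the smallest p, at 252, 277 and 247 CPM in the CON libraries and 301, 344 and 329.8 CPM in the OGD libraries. All OGD libraries lay above the controls (0.33 ± 0.05, edgeR adjusted p = 6.39e-07). RPL23, at the face that meets the 40S subunit, was at 519, 569.8 and 483 CPM in the CON libraries and 611, 663 and 629 CPM in the OGD libraries (0.28 ± 0.05, adjusted p = 1.36e-05). RPL23A, which sits at the rim of the exit tunnel and binds the signal recognition particle, was at 192, 224 and 202 CPM in the CON libraries and 230.3, 253 and 256 CPM in the OGD libraries (0.26 ± 0.05, adjusted p = 8.85e-05). RPL36 was at 153, 179 and 158 CPM in the CON libraries and 186, 191 and 208 CPM in the OGD libraries (0.25 ± 0.05, adjusted p = 0.000255). RPL37A was at 261, 284 and 254 CPM in the CON libraries and 289.6, 332 and 314 CPM in the OGD libraries (0.23 ± 0.05, adjusted p = 0.000271). In all 5 the lowest OGD value was above the highest control, which was CON2. RPL36 did not pass after the length and GC correction given below (0.08, edgeR adjusted p = 0.143). RPL37A did not pass after the correction on coding length (0.09, edgeR adjusted p = 0.149).

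The proteins at the catalytic and late-joining sites of the 60S subunit did not pass. RPL3, which lies close to the peptidyl transferase centre, was at 1315, 1489 and 1361 CPM in the CON libraries and 1315, 1416 and 1392 CPM in the OGD libraries. The groups lay on top of each other (−0.01 ± 0.04, SE, edgeR adjusted p = 0.868). RPL10, one of the last proteins to join the subunit, was at 1265, 1411 and 1311 CPM in the CON libraries and 1286, 1396 and 1363 CPM in the OGD libraries, again with CON2 the highest (0.02 ± 0.04, adjusted p = 0.802). Both have principal transcripts longer than the median of the set.

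The P stalk recruits and activates the GTPases of elongation through RPLP0, RPLP1, RPLP2 and RPL12, and 2 of these 4 genes were higher. RPLP1 was at 1005, 1175 and 1062 CPM in the CON libraries and 1120.5, 1215 and 1219.7 CPM in the OGD libraries and rose (0.13 ± 0.05, edgeR adjusted p = 0.034). RPLP2 was at 424, 502 and 449.9 CPM in the CON libraries and 487, 533 and 552 CPM in the OGD libraries and also rose (0.19 ± 0.05, adjusted p = 0.00964). In both genes CON2 lay above OGD1. RPLP0, the stalk base that is often used as a reference gene in quantitative PCR, was at 1679.8, 1885 and 1658 CPM in the CON libraries and 1717, 1831 and 1818 CPM in the OGD libraries and did not pass (0.04 ± 0.04, adjusted p = 0.599). RPL12 was at 0.07 ± 0.04 (adjusted p = 0.287). Scaled within the set, RPLP1 was at −0.012. With total counts the edgeR adjusted p of RPLP1 was 0.073. Without CON1, CON3, OGD2 or OGD3 it was 0.145 to 0.24, and that of RPLP2 was 0.0539 to 0.0556 without CON1, CON3 or OGD3. Neither RPLP1 (0.01 to 0.04) nor RPLP2 (0.03 to 0.07) passed under any of the 3 length corrections given below.

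RPL5 and RPL11 form a particle with 5S ribosomal RNA that can bind MDM2 and so stabilise p53. RPL11 was at 379, 423 and 393 CPM in the CON libraries and 427, 467 and 464 CPM in the OGD libraries, with all OGD libraries higher (0.18 ± 0.04, edgeR adjusted p = 0.00125). RPL11 did not pass under any of the 3 length corrections given below (0.05, 0.10 and 0.07, edgeR adjusted p = 0.371, 0.0644 and 0.191). RPL5 was at 945, 1049 and 933 CPM in the CON libraries and 1012, 1076 and 1063 CPM in the OGD libraries. CON2 lay above OGD1, and the change did not pass (0.11 ± 0.04, adjusted p = 0.0664). It passed with upper-quartile scaling (0.0443), limma-voom (0.0409), without CON2 (0.00115) and without OGD1 (0.0415). Of the 8 measured genes of the 5S particle and p53 branch, these 2 included, 2 were higher and 1 lower. The shares over all genes tested were 10.2% higher and 9.48% lower. BRIX1, an assembly factor of the particle, rose by 0.24 ± 0.06, and RRS1, another, was at −0.29 ± 0.09, lower.

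RPS27A and FAU are made as fusions, the first with ubiquitin and the second with a ubiquitin-like protein. FAU was at 112, 133 and 120.1 CPM in the CON libraries and 136, 160.00 and 162 CPM in the OGD libraries, above the controls in every OGD library (0.33 ± 0.06, edgeR adjusted p = 0.000941). RPS27A was at 739, 900.1 and 747 CPM in the CON libraries and 897, 1032 and 994 CPM in the OGD libraries. CON2 lay just above OGD1, and the change did not pass (0.29 ± 0.09, adjusted p = 0.0664). RPS27A passed with total counts (adjusted p = 0.0261), DESeq2 (0.0387) and limma-voom (6.72e-05), and without CON2, OGD1 or OGD2 (1.06e-10 to 0.0334).

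At the rim of the exit tunnel, through which the new protein leaves, 3 of 7 genes were higher, RPL19, RPL23A and RPL35. RPL39, a small protein of the tunnel wall, was at 227, 264 and 235 CPM in the CON libraries and 253, 306 and 311 CPM in the OGD libraries. Its groups overlapped because OGD1 lay below CON2 (0.26 ± 0.09, edgeR adjusted p = 0.106). Its paralog RPL39L, known for expression in testis, was at 4.44, 3.93 and 3.01 CPM in the CON libraries and 3.67, 3.23 and 3.82 CPM in the OGD libraries (−0.08 ± 0.20, adjusted p = 0.834). RPL22, a 60S protein that binds several structured RNAs, was at 70.5, 81.5 and 68.4 CPM in the CON libraries and 78.4, 84.7 and 84.2 CPM in the OGD libraries. It rose with CON2 above OGD1 (0.17 ± 0.06, adjusted p = 0.0333). With total counts and DESeq2 the adjusted p of RPL22 was 0.0816 and 0.051, and without CON1, CON3, OGD2 or OGD3 in edgeR it was 0.119 to 0.249. RPL22 also did not pass under any of the 3 length corrections (0.06 to 0.10). RPL39 passed with limma-voom (0.00132), without CON2 (0.0211) and without OGD1 (3.14e-07).

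Of 6 relatives outside the symbol rule, 4 were higher and 0 lower, and 2 were higher after the length and GC correction. Among all genes tested 10.2% were higher and 9.48% lower, and 10.2% were higher after that correction. RPL22L1, the paralog of RPL22, was at 16.99, 21.2 and 17.7 CPM in the CON libraries and 22.5, 28.4 and 26.6 CPM in the OGD libraries, with no overlap (0.47 ± 0.09, edgeR adjusted p = 0.000138). RPL36AL, the paralog of RPL36A, was at 78.6, 94.4 and 74.9 CPM in the CON libraries and 97.2, 121 and 113 CPM in the OGD libraries, also without overlap (0.42 ± 0.11, adjusted p = 0.0403). RPL26L1, the paralog of RPL26, was at 22.8, 29.6 and 27.5 CPM in the CON libraries and 28.8, 32.01 and 32.8 CPM in the OGD libraries, with CON2 just above OGD1 (0.23 ± 0.08, adjusted p = 0.0447). All 3 passed in the main test. RPL26L1 did not with total counts (adjusted p = 0.0792), DESeq2 (0.0635) or limma-voom (0.0553), nor without CON1, CON3, OGD2 or OGD3 (0.0827 to 0.334). RPL36AL did not without CON1 (0.184) or OGD3 (0.127). RPL7L1 was at 160.1, 163 and 160.5 CPM in the CON libraries and 164, 173 and 158 CPM in the OGD libraries (0.03 ± 0.04, adjusted p = 0.668). RACK1, a scaffold bound to the 40S head, was at 1195, 1321 and 1176 CPM in the CON libraries and 1263, 1312 and 1318 CPM in the OGD libraries (0.08 ± 0.04, adjusted p = 0.214, and 0.0088 without CON2).

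The balance of the subunits changed little. Counts of the 40S genes divided by counts of the 60S genes were 0.575, 0.585 and 0.576 in CON1 to CON3 and 0.591, 0.600 and 0.598 in OGD1 to OGD3. The groups did not overlap, and the means were 0.579 ± 0.00557 and 0.596 ± 0.00428 (SD, n = 3). Without RPS26 the ratio was 0.570, 0.580 and 0.571 in CON and 0.584, 0.592 and 0.591 in OGD, again without overlap. The ratio of summed counts leans on the most abundant genes, and no test was run on the ratio.

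Transcript length moved with the fold changes in the whole table, so the set was set against other genes of its own length. The principal transcripts of the 80 genes in the GENCODE 29 annotation had a median of 805.5 nucleotides, against 2939 for all protein-coding genes tested. Other protein-coding genes with an average log2 CPM above 2 had a median log2 fold change of 0.22 up to 500 nucleotides (22 genes). It was 0.22 from there to 750 nucleotides (153 genes) and 0.15 from there to 1000 nucleotides (305 genes). The ribosomal protein genes of the same lengths had medians of 0.23 (8 genes), 0.19 (29 genes) and 0.14 (16 genes). In these 3 bins, which hold most of the set, the ribosomal protein medians lay close to those of other genes, slightly above them in the shortest bin and slightly below in the other two. In the same order, 45.5%, 45.8% and 40% of the other genes were higher, as were 4 of 8, 15 of 29 and 8 of 16 ribosomal protein genes. In the 4 bins of longer transcripts the ribosomal protein medians were above those of other genes. Between 1000 and 1500 nucleotides the medians were 0.16 for 13 ribosomal protein genes (9 higher) and 0.09 for 899 others. From there to 2500 they were 0.11 (7 genes, 3 higher) and 0.04. From there to 5000 they were 0.23 (5 genes, 4 higher) and −0.0034, and above that 0.10 (2 genes, 0 higher) and −0.08. Of the other genes in these 4 bins, 27.0%, 19.3%, 11.7% and 4.88% were higher, in order of length. In these long bins several of the listed ribosomal protein transcripts are much longer than the coding sequence. RPL37, for example, is listed at 7686 nucleotides for a coding length of 291, and whether the cells hold a shorter form was not tested.

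**Figure D5:**
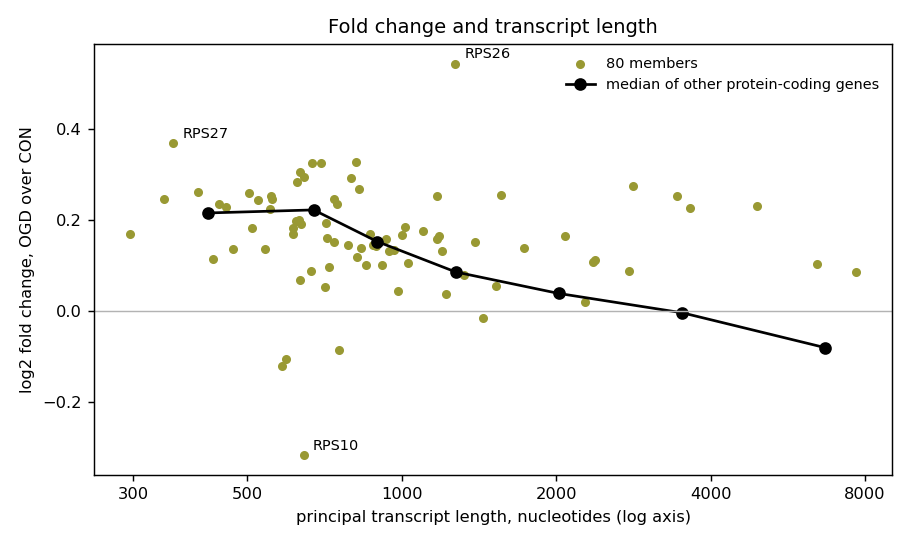
Log2 fold change of OGD over CON (vertical axis) against principal transcript length in nucleotides (horizontal log axis) for the 80 ribosomal protein genes (points), with the median of other protein-coding genes in each length bin drawn at the bin's median length (black line). The line falls from 0.22 in the shortest bin to −0.08 above 5000 nucleotides, most ribosomal protein genes lie near it, and RPS26 lies far above it.

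With each library's trend on length and GC content removed, a trend fitted without the 80 genes, 14 were higher (10.2% of all genes tested) and 4 lower (9.07%), and their median was 0.017. The 4 lower genes were RPL26 (−0.36), RPL12 (−0.12), RPL41 (−0.10) and RPS9 (−0.10). With a trend on coding length alone, 20 were higher (9.58% of all genes) and 0 lower (8.28%), with a median of 0.09. With the longest annotated transcripts, 28 were higher (10.4%) and 2 lower (8.88%), with a median of 0.08. The 2 lower genes were RPL26 (−0.32) and RPL5 (−0.10). The 3 corrections differed in the transcript taken, in the length measure and in whether GC content was included. How much of the set's rise was counted as a trend thus differed among them, and 9 genes were higher under all 3 corrections. RPS26 stayed at 0.44, 0.43 and 0.40 in turn, and RPS27 at 0.12, 0.22 and 0.12, passing in each (edgeR adjusted p = 0.0231, 0.0014 and 0.0148). In all 21 alternative fits that keep a scaling over all genes, 8 genes were higher, among them FAU, RPL21, RPL23, RPL23A, RPS23, RPS24 and RPS26. Within the set, shorter genes had the larger changes, with a Spearman rho of −0.26 with principal length and −0.33 with coding length over 80 genes. These genes share their libraries and are not independent.

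Ribosomal protein genes have more processed pseudogenes than most families, and reads that match several places can be lost or split. RefSeq lists 1970 pseudogenes under names of the set, with a median of 16 a gene and 137 for RPL21. Of the 80 messengers, 53 share over 20% of their 50-base windows with another annotated gene, and 30 share over 20% of their 100-base windows. The labels do not say how reads that match several genes were counted. The 27 genes with up to 20% of shared 50-base windows had 15 higher and a median of 0.19. The other 53 had 28 higher and a median of 0.16, and 10.2% of all genes tested were higher. The rho of the fold change with the shared share was −0.18 for 50-base and −0.12 for 100-base windows, and 0.10 with the number of pseudogenes. RPL23 and RPL36, of which 4.18% and 1.78% of 50-base windows are shared, were among the genes that rose. All these shares are taken over the whole listed transcript, coding or not. That of RPL23 has 2821 nucleotides for a coding length of 420, and that of RPL36 has 556 for 315.

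The table also held 142 rows of ribosomal protein pseudogenes, belonging to 51 of the genes and holding 3.86% as many counts as the set. Of these rows 6 were higher and 1 lower, with a median of 0.05, a smaller share in each direction than the 10.2% and 9.48% of all genes. After the length and GC correction 1 was higher and 10 lower, with a median of −0.15. RPS28P7 was at 146, 169 and 155 CPM in the CON libraries and 175, 188 and 178 CPM in the OGD libraries, above the parent gene RPS28 with 77.6 ± 5.99 CPM in CON and 82.1 ± 3.86 CPM in OGD. It rose (0.20 ± 0.05, edgeR adjusted p = 0.00109), while RPS28 did not pass (0.08 ± 0.06, adjusted p = 0.357). RPL36AP37 rose from 79.6 ± 6.44 to 91.3 ± 5.66 CPM (0.20 ± 0.06, adjusted p = 0.00768), while RPL36A was at only 5.48, 5.75 and 4.95 CPM in the CON libraries and 5.60, 5.26 and 6.65 CPM in the OGD libraries (0.11 ± 0.16, adjusted p = 0.692). Summed with its pseudogene rows RPL36A passed (0.19, adjusted p = 0.00863). RPL24P4, RPL7AP62, RPL7P1 and RPS27AP16 were also higher, and RPL23P2, at 0.683 ± 0.368 CPM in CON and 0.208 ± 0.132 CPM in OGD, was lower. Reads of a parent and its copy cannot be told apart in these counts. With each gene summed with its pseudogene rows, 46 of the 80 were higher and 0 lower.

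A few genes had far lower counts than the rest of the set. The median level per kilobase of principal transcript was 594 CPM in CON and 706 CPM in OGD. RPS10, RPL17, RPL36A and RPL26 stood at 2.90, 7.08, 12.6 and 26.6 CPM per kilobase in CON. In each of these 4 rows 59.0% to 91.0% of the principal transcript overlaps another annotated gene. For RPS10, RPL17 and RPL36A these are the read-through genes RPS10-NUDT3, RPL17-C18orf32 and RPL36A-HNRNPH2. The labels do not say how reads in overlapping genes were counted, and the part of overlap in these levels was not tested. None of the 7 genes with under 1000 counts a library on average was called, and 4 of the 5 negative fold changes of the set, those of RPS10, RPL26 and RPL39L included, were among them. That of RPL3 was not.

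The other genes of the pathway moved in both directions. Of 20 measured elongation factors and other known TOP messengers, 6 were higher and 4 lower, with a median of 0.0029. Among all genes tested 10.2% were higher and 9.48% lower, and after the length and GC correction 10.2% and 9.07%. EEF2, the translocation factor, fell from 3463 ± 134 to 2832 ± 100.3 CPM (−0.29 ± 0.04, edgeR adjusted p = 2.44e-07) and PABPC1, the poly(A)-binding protein, from 1944 ± 47.8 to 1638 ± 56.2 CPM (−0.25 ± 0.04). HNRNPA1 rose from 1073 ± 48.1 to 1272 ± 37.7 CPM (0.25 ± 0.04, adjusted p = 6.64e-06). The median principal transcript of this list is 1908 nucleotides, longer than that of the ribosomal proteins, and after the length and GC correction 2 were higher and 7 lower with a median of −0.08. Of 15 regulators of TOP messengers and mTORC1, 3 were higher and 5 lower with a median of −0.06. After the correction 3 were higher and 3 lower, and the median was 0.06. DDIT4, a stress-induced inhibitor of mTORC1, fell from 153 ± 4.28 to 119.97 ± 1.99 CPM (−0.35 ± 0.04, adjusted p = 4.6e-08). EIF4EBP1, the repressor of cap-dependent translation that mTORC1 inactivates, fell from 68.8 ± 6.22 to 52.5 ± 1.11 CPM (−0.39 ± 0.06), and TSC2, an upstream inhibitor, from 91.1 ± 3.14 to 74.00 ± 5.31 CPM (−0.30 ± 0.05).

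Of 14 chaperones and importers of ribosomal proteins, 5 were higher and 1 lower. For this and the next lists, the shares over all genes tested were 10.2% higher and 9.48% lower. The importin KPNB1 rose by 0.19 ± 0.04 and HEATR3, which serves RPL5 and RPL11, by 0.29 ± 0.08, while IPO7 was lower at −0.14 ± 0.04. Of 8 transcription factors known to act at ribosomal protein promoters, 0 were higher and 2 lower, ZBTB7A at −0.28 ± 0.05 and MYC at −0.18 ± 0.06. Of 17 ribosome quality control genes 3 were higher and 2 lower, and none of these lists was tested as a set. EDF1, which binds collided ribosomes, rose by 0.22 ± 0.05, and the kinase MAP3K20 and the ubiquitin ligase ZNF598 were lower at −0.20 ± 0.05 and −0.21 ± 0.06.

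The subunit genes of 2 mitochondrial machines, also of short messengers, were set beside them. Among all genes tested 10.2% were higher and 9.48% lower, and after the length and GC correction 10.2% and 9.07%. Of 76 mitochondrial ribosomal protein genes, 24 were higher and 2 lower, with a median of 0.12, and after the length and GC correction 11 were higher and 6 lower with a median of 0.04. Of 81 nuclear-encoded respiratory chain genes, 49 were higher and 1 lower, with a median of 0.23, and after the correction 23 were higher and 2 lower with a median of 0.10. The cytosolic set had 43 of 80 higher and a median of 0.17 before the correction. After it, 14 of 80 were higher and 4 lower, with a median of 0.017. Its median thus lay between the other 2 before the correction and below both after it. Its 14 of 80 higher after the correction lay between the 11 of 76 and the 23 of 81. No test compared the 3 sets.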

How the data were processed

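The deposited file holds whole-number read counts per Ensembl gene. Per the submitters' processing notes the authors used Trimmomatic, HISAT2, SAMtools, featureCounts and edgeR, without versions. The notes name GRCm38, a mouse build, although the IDs are human, so the build behind the counts is uncertain and no coordinates come from them. Strand use and the treatment of reads matching several genes are not recorded there. No row had fewer than 3 libraries with 10 or more counts, so a filter that is not stated had been applied.

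Symbols matched 17093 of 17104 rows. Counts were TMM-scaled and tested with edgeR 4.0.16 (R 4.3.3, robust quasi-likelihood, two-sided, no replicate block), with filterByExpr (minimum count 10, 0 genes removed), and the SE was derived from the fold change and F statistic. The common biological coefficient of variation was 6.26%. Chi-square per degree of freedom was 4.07 to 7.43 between libraries of a group and 16.0 to 23.5 across groups, so all 6 were kept. Length trends were fitted per library with mgcv 1.9.3. The fit was tested on simulated data. The members, lists and named genes were chosen with earlier results of these data known. Values per library are given for the 5 genes of smallest p and the 2 of largest p in each subunit, for genes fixed by name and for the relatives. RPS20, RPL12 and RPS28 were added after their values were seen, as were the pseudogene rows and the genes of outlying level. From each other list, up to 3 genes of smallest p are named. The alternatives tried were scaling by RLE, by the upper quartile and by total counts, TMM without the set, DESeq2 1.42.0, limma-voom (limma 3.58.1), filters, leaving out mitochondrially encoded genes, a replicate block, 3 length corrections, pseudogene sums, scaling to the set, and leaving out each library. Of these, the longest-transcript correction and the scaling to the set were added after seeing the data. Some genes that the naming rule picked are not reported here by name.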

Additional observations from a re-analysis of the deposited data

How the results depend on the processing

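The count of ribosomal protein genes higher after OGD was 43, and it stayed between 39 and 59 under other scalings over all genes, tools and filters, with pseudogene rows added and with the replicate number as a block (59). The count of lower genes was 0 in all of these. It was 14 higher and 4 lower with the length and GC correction (median 0.01699), and 17 and 4 with that correction and the replicate block (median 0.01734). It was 20 higher with coding length, 28 higher and 2 lower with the longest transcripts, and 2 higher with scaling to the set (median 0.019). Leaving out 1 library gave 20 to 68 higher. Over the whole set, 28 positive fold changes turned negative with the length and GC correction, with or without the block (RPL12, RPL41 and RPS9, then called lower, among them), and 10 with coding length. It was 9 with the longest transcripts, 29 within the set, 1 with total counts and 0 to 3 on leaving out 1 library. Among genes with values per library that passed in either fit, signs turned for RPL5 (−0.10) and RPS6 (−0.0094) with the longest transcripts and for RPLP1 (−0.012) within the set. The cause of these differences was not tested, except that each length correction removes a length trend by construction.

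The replicate numbers are not taken to pair the samples. Same-numbered CON and OGD libraries had correlations of deviations from the group means of −0.00087, 0.083 and −0.0077, and not every library correlated best with its own number. Dropping the filter left the tested genes as they were, so that fit says nothing about filtering. RPS10 and RPL39L, with the fewest counts, had the widest SE (0.28 and 0.20), and what else depth limits was not tested.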
